A study of Mus musculus with 50 samples.

Results

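In the lung of a young SP-CI73T mutant mouse exposed to ozone, CD68+ (immune) segments of 3 injured regions were compared with CD68+ segments of 3 peri-injured regions. These 6 segments were chosen by their labels alone, as regions 1, 2 and 3 (injured) and regions 4, 5 and 6 (peri-injured) of 1 section. They are 6 of the 24 CD68+ segments and 6 of the 48 tissue segments of the series. Each region also gave a CD45- (non-immune) segment, and the 6 CD45- segments of the same regions served for comparison.

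SP-CI73T is a mutant form of surfactant protein C (SP-C), a protein that alveolar type 2 cells secrete as part of surfactant. Ozone is an oxidant gas that injures the airway and alveolar lining. Lung macrophages, for which CD68 is a widely used marker, take up debris and surfactant, and monocytes recruited to injured tissue add to the resident alveolar and interstitial macrophages.

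Both region types of the section came from the same 12-week-old SP-CI73T mutant, which had breathed 0.8 ppm ozone for 3 h and whose lungs were taken after 72 h. The other sections were a young SP-C wild type lung and an old (80-week) SP-CI73T mutant lung after the same ozone exposure, and a young SP-C wild type lung after filtered air, with regions described as healthy. Samples of that last section carry ozone exposure as their treatment label, but their titles and time point name air, which is the reading used here. The animals were housed germ free. Each section carries 1 study identifier and is read here as 1 animal. Both mutant lungs were collected on 1 plate and both wild type lungs on another, and genotype and plate therefore cannot be separated or told apart. All lungs were perfused, inflated with formalin and embedded in paraffin, and the sources used here give neither the promoter of the mutant allele nor the sex of the mice. Regions were drawn on sections stained for CD45, CD68 and DNA, and the sources used here do not give the criteria by which a region was called injured or peri-injured. Because the stain set the segments, CD68 and CD45 themselves are no finding between them.

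The method, GeoMx spatial profiling, counts barcodes released by light from RNA probes in a chosen area, so a segment is a bulk sample of many cells. In such samples, fewer cells of a type and less RNA per cell cannot be told apart. The probes are listed by RTS identifiers, and neither the files nor the reference tables used here pair these with genes. No gene, pathway or cell type is therefore named, macrophage markers were not evaluated, and no probe sequence is shown. All p-values below take regions as replicates, with 1 animal per section, and are too small for any statement on animals.

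The CD68+ segments were shallow. They held 59938, 20181 and 42112 counts in injured regions 1, 2 and 3, against 20043, 26121 and 38133 counts in peri-injured regions 4, 5 and 6. At least 1 count was found for 15912, 9260 and 13812 identifiers in the injured and for 10203, 11828 and 14453 identifiers in the peri-injured regions, of 20175 analysed. The ranges of the 2 region types overlapped for both measures. The CD45- segments of the same regions held 74468 to 210491 counts, and the CD68+ segments of the other ozone sections 25723 to 101968.

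The injured segments had more of their counts in the most abundant identifiers, which rests on 1 identifier, RTS0076055. It alone held 7.21, 8.68 and 15.9% of the counts in injured regions 1, 2 and 3, against at most 0.205% in a peri-injured region. How the counts were spread over the other identifiers was not tested. The 10 most abundant identifiers took 12.1, 13.2 and 19.9% of the counts in injured regions 1, 2 and 3, against 6.20, 7.35 and 6.88% in peri-injured regions 4, 5 and 6. Every injured region lay above every peri-injured region, with means of 15.0 ± 4.24% in injured and 6.81 ± 0.580% in peri-injured regions (SD, n = 3 each). The two-sided exact permutation test over regions gave p = 0.1, the smallest that 3 against 3 allows (0.5 adjusted over 5 measures), and here too the regions share 1 animal. Total counts, identifiers detected, segment area and the segment's share of the captured area gave exact permutation p of 0.4, 0.8, 0.6 and 0.5. The CD68+ segment covered 12.6, 5.74 and 18.6% of the captured area in injured and 5.05, 12.4 and 12.5% in peri-injured regions, and these overlapped.

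The test across identifiers asked which transcripts differed between injured and peri-injured CD68+ segments. Of 222 identifiers abundant enough to test, 10 had a higher level in the injured regions and 13 a lower one (edgeR, Benjamini-Hochberg adjusted p under 0.05). These were 4.50% and 5.86% of those tested, or 10.4% in all. The regions share 1 animal, so these p-values are too small for a statement on animals. The median count of an identifier over all 20175 was 0 to 2 in each of the 6 segments. The filter asked for about 311 counts per 1000000 counts of the segment (CPM) in at least 3 segments. For 4 of the 10 higher calls every peri-injured region lay below that level, and for 4 of the 13 lower calls every injured region did, so these 8 were tested only through the region type in which they are high. Calls with only some low regions below that level, such as RTS0076158, also needed the other region type to pass the filter. The number 8 is therefore a minimum. The 10 higher identifiers changed by 1.21 to 6.86 on the log2 scale with a median of 2.11. The 13 lower ones changed by 0.71 to 2.63 with a median of 1.68, and 10 of the 13 changed by at least 1. For all 23 the injured and peri-injured regions did not overlap in CPM, and the same held in 1 direction or the other for 24 (10.8%, injured above) and 29 (13.1%, injured below) of the 222. The median log2 fold change of all 222 was 0.01. The number of calls was 9 of 208 tested without peri-injured region 6 and 11 of 325 tested without peri-injured region 5. Without any 1 of the other regions it was 16 to 24, with 199 to 340 tested. DESeq2 called 9 higher and 7 lower of the 222. With all 24 CD68+ segments in the fit, edgeR called 24 higher and 14 lower of 629 tested.

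**Figure D1:**
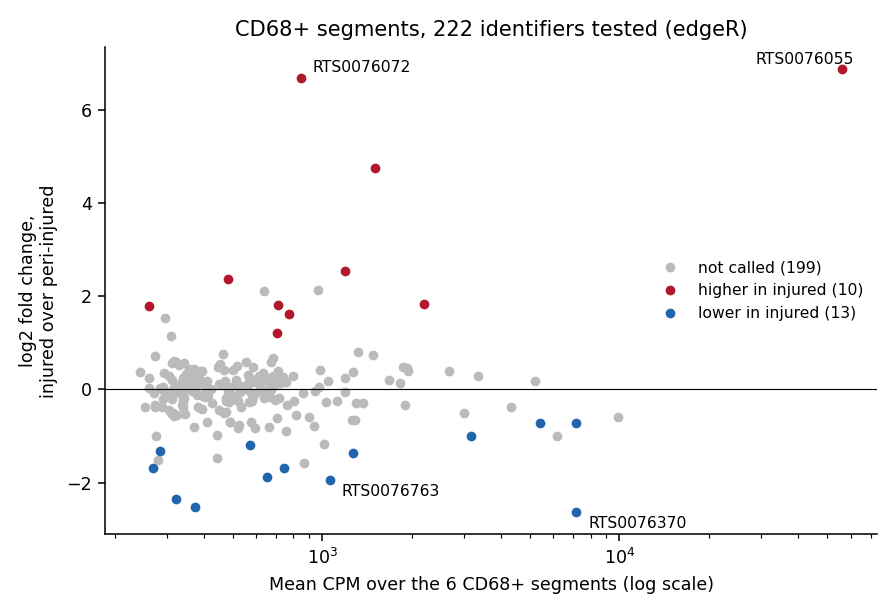
Each point is 1 of the 222 identifiers tested in CD68+ segments, with its mean level in CPM over the 6 segments (log scale) on the x axis and its log2 fold change, injured over peri-injured, on the y axis. The 10 identifiers called higher reach 6.86, the 13 called lower reach -2.63, and the 4 labelled ones are described in the text.

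RTS0076055 had the highest mean level over the 6 CD68+ segments, through the injured ones, and the largest fitted fold change. It had 4320, 1751 and 6685 counts in injured regions 1, 2 and 3, against 41, 10 and 18 counts in peri-injured regions 4, 5 and 6. These were 7.21% (95% Wilson interval 7.00 to 7.42), 8.68% (8.30 to 9.07) and 15.9% (15.5 to 16.2) of the counts in the injured and 0.205% (0.151 to 0.277), 0.0383% (0.0208 to 0.0705) and 0.0472% (0.0299 to 0.0746) in the peri-injured segments. Wilson intervals here cover counting error only. The injured regions differed among themselves by more than that error, with region 3 the highest, and peri-injured region 4 exceeded regions 5 and 6, but no peri-injured region came near an injured one. On the scaled CPM the means were 111338 ± 64868 in injured and 917 ± 845 in peri-injured regions (SD, n = 3 each). Its fold change on the log2 scale was 6.86 (SE 0.70, edgeR adjusted p = 8.44e-05), or 116-fold, and it was called without any 1 of the 6 regions, at 6.35 to 7.93.

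RTS0076072 was also higher in injured regions, at a far lower level. It had 116, 26 and 72 counts in injured regions 1, 2 and 3, against 1, 0 and 0 counts in peri-injured regions 4, 5 and 6. In CPM it stood at 1909, 1140 and 2005 in the injured regions, against 46.1, 0 and 0 in the peri-injured regions. All injured regions were well above the peri-injured ones, whose level rests on a single count. A count of 0 allows a share of up to 0.0115% in region 5 and 0.00787% in region 6 (3 counts of the total), below the 0.129 to 0.194% of the injured regions. The ratio of summed counts per total was 148, with an exact 95% counting interval of 26.2 to 5856, and the fitted log2 fold change 6.67 (SE 0.61, edgeR adjusted p = 6.20e-05). Every peri-injured region lay below the filter level of about 311 CPM, so RTS0076072 was tested only through the injured regions, where it is high. The other 8 identifiers called higher had log2 fold changes of 1.21 to 4.75 and edgeR adjusted p of 8.44e-05 to 0.0411.

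Among identifiers lower in injured regions, RTS0076370 had the largest fold change. It had 165, 26 and 92 counts in injured regions 1, 2 and 3, against 168, 409 and 497 counts in peri-injured regions 4, 5 and 6. In CPM it stood at 2715, 1140 and 2562 in injured regions, against 7749, 15630 and 13220 in peri-injured regions. The region types did not overlap, with injured region 2 the lowest and peri-injured region 4 the lowest of its kind. The fold change on the log2 scale was -2.63 (SE 0.33, edgeR adjusted p = 0.000325), 6.19-fold lower, and it was called without any 1 of the regions, at -2.81 to -2.30.

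RTS0076763 had 38, 9 and 13 counts in injured regions 1, 2 and 3, against 24, 45 and 81 counts in peri-injured regions 4, 5 and 6. In CPM it stood at 625.3, 395 and 362 in injured regions, against 1107, 1720 and 2155 in peri-injured regions. No injured region reached the lowest peri-injured region. On the log2 scale it changed by -1.95 (SE 0.33, edgeR adjusted p = 0.00338), 3.87-fold lower, and it too was called without any 1 of the regions. The other 11 identifiers called lower had log2 fold changes of -2.53 to -0.71 and edgeR adjusted p of 0.00466 to 0.0480.

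**Figure D2:**
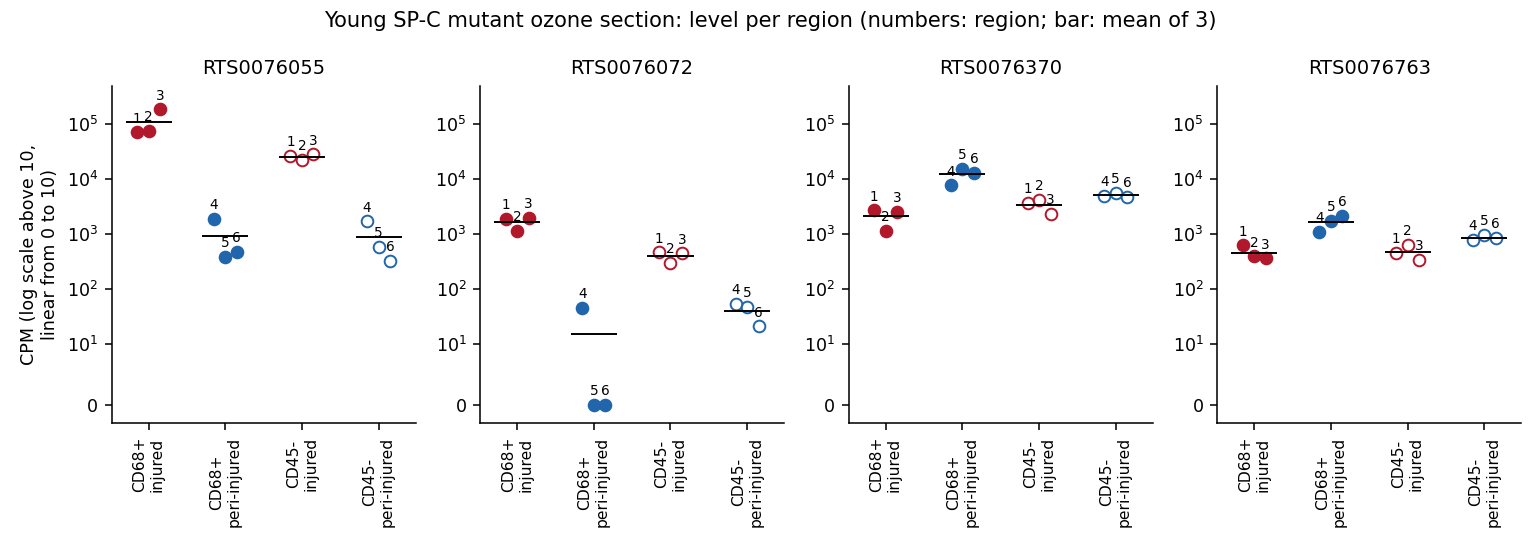
Level in CPM (log scale above 10, linear from 0 to 10) of 4 identifiers in each region of the young SP-CI73T mutant ozone section, in CD68+ (filled) and CD45- (open) segments, injured in red and peri-injured in blue, with region numbers and the mean of 3 as a bar. RTS0076055 and RTS0076072 are higher and RTS0076370 and RTS0076763 lower in every injured region of both segments.

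The calls were of unequal stability across regions. Of the 10 identifiers called higher, 6 were called in all 6 fits that left out 1 region each, and of the 13 called lower, 3 were. Another 4 of the 13 were called in none of these fits, although all 23 kept their direction wherever they were tested. RTS0067799, which had the second highest mean level, had 544, 161 and 323 counts in injured and 238, 288 and 471 counts in peri-injured regions. In CPM it stood at 8952, 7058 and 8995 in injured, against 10977, 11006 and 12529 in peri-injured regions, which do not overlap. It changed by -0.58 on the log2 scale (SE 0.20) and did not pass (edgeR adjusted p = 0.102).

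The share of counts in the called identifiers differed in the same way. The 10 called higher held 8.58, 9.90 and 17.6% of the counts in injured regions 1, 2 and 3, against 0.549, 0.302 and 0.262% in peri-injured regions 4, 5 and 6. Without RTS0076055 the remaining 9 held 1.37, 1.22 and 1.69%, against 0.344, 0.264 and 0.215%. The 13 called lower held 1.92, 1.51 and 1.63% in injured, against 3.34, 4.56 and 4.22% in peri-injured regions. These shares describe identifiers picked on the same segments and add no test. With RTS0076055 left out of the table before scaling, 13 identifiers were higher and 14 lower of 232 tested, and 21 of the 22 other main calls were called.

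**Figure D3:**
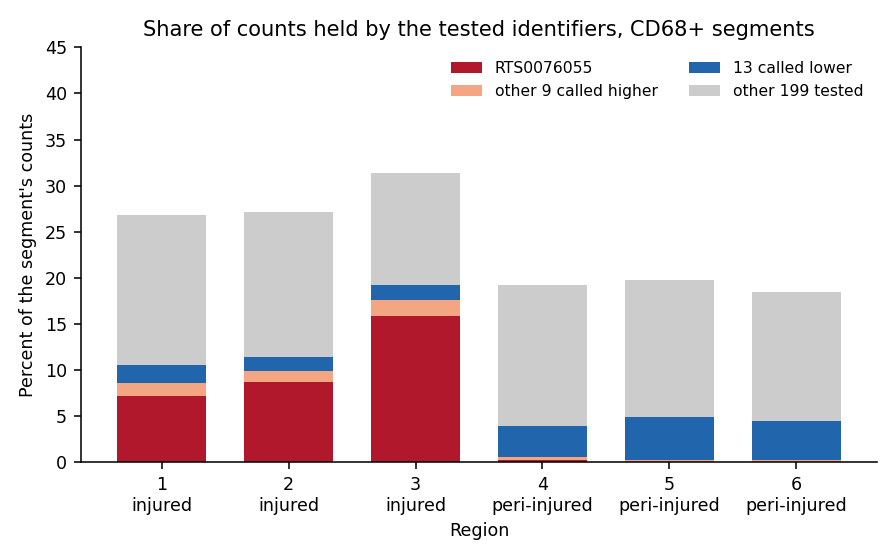
Percent of each CD68+ segment's counts held by RTS0076055, the other 9 identifiers called higher, the 13 called lower and the other 199 tested, stacked per region. RTS0076055 holds 7.21 to 15.9% in the injured and at most 0.205% in the peri-injured segments.

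The likeness of the segments was described by their correlation. Pearson's r of log2 CPM over the 222 identifiers was 0.77 to 0.82 between injured regions and 0.72 to 0.86 between peri-injured regions, against 0.43 to 0.65 between the types. The 23 called identifiers, which were picked for differing between the types, are part of these values. With them left out, r was 0.66 to 0.73 between injured regions (median 0.66) and 0.65 to 0.79 between peri-injured regions (median 0.75), against 0.57 to 0.80 between the types (median 0.73). Segments of 1 type were then no more alike throughout than segments of different types. The correlations are across identifiers of libraries that share an animal and differ in depth. The 199 identifiers not called had a median log2 size of 0.26, and 9 of them differed by at least 1.

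As a check of the segment labels without gene names, identifiers were sorted in the air section into 59 that were higher and 59 that were lower in CD68+ than in CD45- segments in all 4 air regions, of 248 abundant there. The lists are called macrophage-enriched and non-immune-enriched after these segments alone, as no marker was evaluated. In the young mutant section the median CD68+ minus CD45- difference was 0.30 (log2) for the 59 macrophage-enriched identifiers, with 44 of 59 higher in CD68+, and -0.54 for the 59 non-immune-enriched identifiers, with 7 of 59 higher. For all 222 tested it was 0.17, with 142 of 222 higher in CD68+. Only 48 of the first 59 and 28 of the second 59 were among the 222, so these medians cover unlike sets. Over the 6 regions the median of the first list ranged from -0.05 to 0.53, so in at least 1 region it did not lie above 0, while that of the second ranged from -0.82 to -0.35. Both medians had the direction of the air section, and that of the macrophage-enriched list was the smaller in size. The median of all 222 also lay above 0, so the sign of the macrophage-enriched median alone is no check of the labels.

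The same lists were read between injured and peri-injured CD68+ segments. With CPM scaled over all segments, the median log2 CPM difference was 0.07 for the macrophage-enriched list (32 higher and 27 lower). It was -0.31 for the non-immune-enriched list (15 higher and 44 lower) and 0.11 for all 222 tested (132 higher and 90 lower). Here too the lists include identifiers outside the 222. The median of the macrophage-enriched list was -0.11 without injured region 1 and -0.02 without injured region 2. Of the 48 macrophage-enriched identifiers that were tested, 1 was called higher and 8 lower in injured regions. Of the 28 non-immune-enriched identifiers tested, 2 were called higher and 2 lower. Over all 222 tested the shares were 4.50% higher and 5.86% lower. RTS0076370 and RTS0076763 belong to the macrophage-enriched list, with CD68+ minus CD45- differences over the air regions of 1.43 to 3.09 and 1.09 to 2.80 (log2). RTS0076158 belongs to the non-immune-enriched list, with -2.002 to -0.748. Whether the makeup of the segments had a part in the injury differences was not tested.

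The CD45- segments of the same regions showed differences in the same direction. All 10 identifiers called higher in CD68+ segments were also higher in CD45- segments of the injured regions, 9 of them without overlap, at a median log2 CPM difference of 2.00 in CD68+ against 1.48 in CD45- segments. The smallest of these CD45- differences was 0.03, below the median of 0.08 over all 222 in CD45- segments. All 13 called lower were also lower in CD45- segments, 5 of them without overlap, at a median of -1.57 in CD68+ against -0.41 in CD45- segments. Among all 222 the CD45- regions did not overlap for 35 with injured above (15.8%) and 18 with injured below (8.11%), and 127 of 222 were higher. RTS0076055 stood at 26228, 22751 and 28459 CPM in CD45- segments of injured regions 1, 2 and 3, against 1705, 584 and 325 CPM in those of peri-injured regions 4, 5 and 6.

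**Figure D4:**
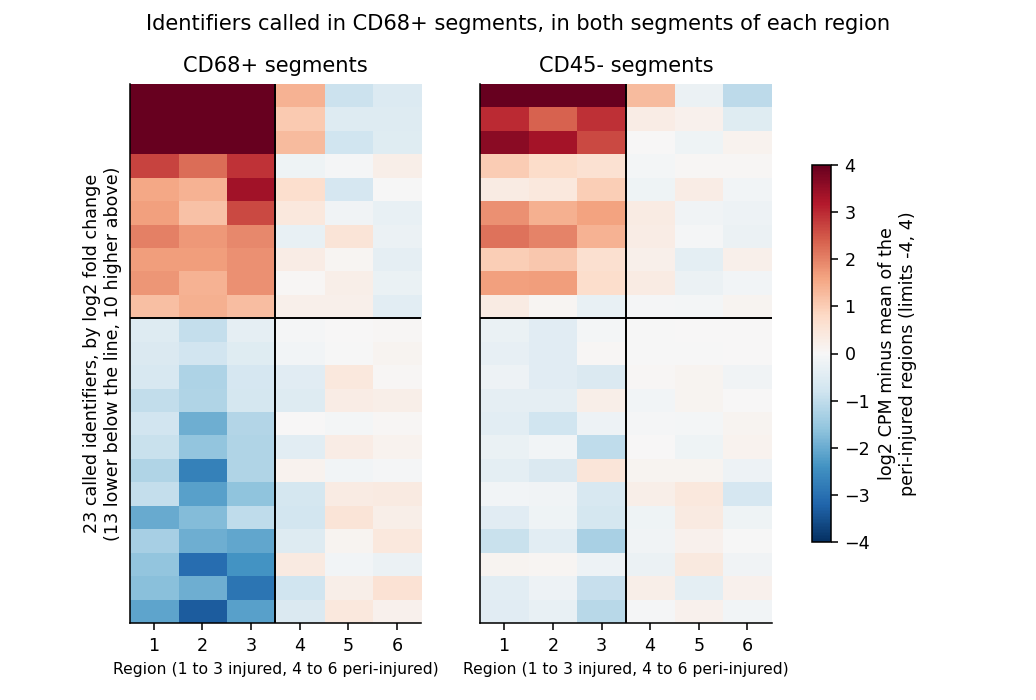
Log2 CPM of the 23 called identifiers (rows, ordered by log2 fold change) in the CD68+ and CD45- segments of regions 1 to 3 (injured) and 4 to 6 (peri-injured), minus the mean of the peri-injured regions of the same segment type, with colours ending at -4 and 4. The mean difference over the injured regions is smaller in size in CD45- than in CD68+ segments for all 10 rows above the line and all 13 rows below it, which were chosen for their difference in CD68+ segments.

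Whether the injury difference was larger in CD68+ than in CD45- segments was tested as an interaction over the 12 segments of this animal, whose p-values are too small for a statement on animals. Of 883 identifiers tested, the difference was higher in CD68+ segments for 1 and lower for 1 (0.113% each, 0.227% in all, edgeR adjusted p under 0.05). RTS0076158 had 132, 36 and 89 counts in CD68+ segments of injured regions 1, 2 and 3, against 6, 8 and 14 counts in those of peri-injured regions 4, 5 and 6. In CPM these were 2172, 1578 and 2479 in injured, against 277, 306 and 372 in peri-injured regions. Only peri-injured region 6 reached the filter level of about 311 CPM. Between CD68+ region types RTS0076158 was therefore tested only through the injured regions, where it is high. In CD45- segments the injured regions had 998, 825 and 754 CPM and the peri-injured regions 453, 497 and 504 CPM. Both segment types were higher in every injured region. The log2 fold change in CD68+ segments was 2.55 (SE 0.28, edgeR adjusted p = 0.000104), and the CD68+ difference exceeded the CD45- difference by 1.82 on the log2 scale (SE 0.33, edgeR adjusted p = 0.0228). RTS0076370 had CPM of 3748, 4148 and 2354 in CD45- segments of injured regions, against 4961, 5697 and 4711 in those of peri-injured regions, a smaller gap than in CD68+ segments. Its difference of effects was -1.93 (SE 0.40, edgeR adjusted p = 0.0499).

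The CD68+ and CD45- segments were cut out of the same 6 regions, so region numbers pair them, and with the region as a block 7 identifiers passed, 3 higher and 4 lower. RTS0076158 (1.81, edgeR adjusted p = 0.00874) and RTS0076370 (-1.89, edgeR adjusted p = 0.00101) were among the 7. RTS0076055 passed with this block as well, at 1.88 (SE 0.28, edgeR adjusted p = 0.000552), and not without it, at 2.13 (SE 0.78, edgeR adjusted p = 0.506). Leaving out any 1 of the 6 regions left 0 or 1 calls in edgeR without the block, with 815 to 1700 identifiers tested. Of these, 58 to 117 had an unadjusted p under 0.05, against 59 of 883 with all regions. DESeq2 called 2 identifiers with all regions.

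The injury difference of the young mutant section was then set beside that of the young wild type section after ozone. Of 617 identifiers tested, the young mutant section had the higher difference for 8 and the lower for 5 (1.30% and 0.810%, 2.11% in all, edgeR adjusted p under 0.05). Section, genotype, animal and plate cannot be told apart in this contrast, and with 1 animal per section its p-values are too small for animals. RTS0076158 differed by 3.53 on the log2 scale (SE 0.50, edgeR adjusted p = 2.37e-05). It averaged 2076 ± 458 CPM in injured, against 318 ± 49.1 CPM in peri-injured, segments of the young mutant (SD, n = 3 each). The wild type averaged 96.4 ± 24.4 CPM in injured, against 183 ± 107 CPM in peri-injured, segments (SD, n = 4 each), which overlapped. The wild type levels rest on 4 to 7 counts per injured and 4 to 15 counts per peri-injured region.

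RTS0076072 differed from the wild type by 6.18 (SE 1.39, edgeR adjusted p = 0.0187). It did not pass without peri-injured region 6 (5.46, edgeR adjusted p = 0.0960). In the wild type section it held 1 to 5 counts per injured region and 0 to 3 per peri-injured region, so its fitted difference rests on few counts. RTS0076370 differed by -1.89 (SE 0.47, edgeR adjusted p = 0.0340), with 16932 ± 7179 CPM in injured, against 26150 ± 3776 CPM in peri-injured, wild type segments (SD, n = 4 each), which overlapped. This difference did not pass without injured region 2, injured region 3, peri-injured region 5 or peri-injured region 6 (edgeR adjusted p 0.0598 to 0.157). RTS0068371 differed by -1.56 (SE 0.43, edgeR adjusted p = 0.0423). It had 197, 395 and 390 CPM in injured, against 553, 611 and 505 CPM in peri-injured CD68+ segments of the young mutant. In the wild type it had 613 ± 39.9 CPM in injured, against 386 ± 138 CPM in peri-injured, segments (SD, n = 4 each), which is the other direction. In the young mutant its own change did not pass (-0.98, edgeR adjusted p = 0.135), and the difference between the sections did not pass with DESeq2 or without injured region 1, injured region 3 or any 1 of the peri-injured regions (adjusted p 0.0606 to 0.199). RTS0063075, named after its values were seen and with 0 counts in all injured regions of the young mutant, also passed (fitted -6.56, edgeR adjusted p = 0.00471). In the wild type it went the other way, with 343 ± 62.6 CPM in injured, against 157 ± 48.2 CPM in peri-injured, segments (SD, n = 4 each). RTS0076055 did not pass, at 2.70 (SE 1.61, edgeR adjusted p = 0.506). Without peri-injured region 6 the 13 calls of 617 tested became 1 of 759. They became 4 of 776 without injured region 3 and 7 of 757 without peri-injured region 5, while DESeq2 called 4 of 617.

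Against the old mutant section, which shares its plate with the young one, the injury difference was higher in the young mutant for 2 of 617 identifiers and lower for 1 (0.324% and 0.162%, 0.486% in all, edgeR adjusted p under 0.05). Section, age and animal cannot be told apart here, and again these p-values are too small for a statement on animals. RTS0076158 differed by 1.92 (SE 0.45, edgeR adjusted p = 0.0455), with 578 ± 119 CPM in injured, against 360 ± 32.1 CPM in peri-injured, segments of the old mutant (SD, n = 3 each), which did not overlap. The other identifiers that passed are named after their values were seen. RTS0063733 had 6, 1 and 7 counts in injured and 0 counts in all peri-injured regions of the young mutant, and RTS0063075 had 0 counts in all injured and 1, 2 and 6 counts in peri-injured regions. With the empty group set to a floor of 3 counts, RTS0063733 came out 3.22-fold higher and RTS0063075 4.35-fold lower in injured than in peri-injured regions. These ratios take the 14 and 9 counts of the other group as exact, so they are no strict bounds. The fitted differences of both identifiers from the old mutant were 6.32 (SE 1.52, edgeR adjusted p = 0.0476) and -6.09 (SE 1.39, edgeR adjusted p = 0.0455) and are no bounds either. None of the 3 passed with DESeq2 or upper quartile factors, both of which called 0 identifiers, with an unadjusted p under 0.05 for 35 in DESeq2 and 49 in edgeR with upper quartile factors (45 with TMM). In edgeR the count was also 0 without injured region 1, injured region 3, peri-injured region 5 or peri-injured region 6. These fits tested 723 to 776 identifiers, with 51 to 68 at an unadjusted p under 0.05.

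Sizes of the 23 calls in the other sections are given side by side. Of the 10 called higher, 9 were higher in injured CD68+ segments of the old mutant, 6 without overlap, at a median log2 CPM difference of 0.79. In the wild type 5 of the 10 were higher, 1 without overlap, at a median of 0.03. Of the 13 called lower, 12 were lower in the old mutant (5 without overlap, median -0.60) and 10 in the wild type (1 without overlap, median -0.15). Over all 222, 131 were higher (59.0%) and 91 lower in the old mutant, at a median of 0.09. In the wild type 113 were higher (50.9%) and 109 lower, at a median of 0.006. Over all 222, injured regions were above without overlap for 14.4% in the old mutant and 4.95% in the wild type, and below for 10.8% and 0.901%. The wild type groups have 4 regions each and the mutant groups 3, so these shares are not on the same footing.

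Levels in the CD68+ segments of all sections were last set side by side. RTS0076055 ran 71087 to 186170 CPM in injured regions of the young mutant, 5324 to 26110 in those of the old mutant and 174 to 2346 in those of the wild type, and these ranges do not overlap. Peri-injured regions had 382 to 1891 CPM in the young mutant, 297 to 740 in the old mutant and 0 to 100.3 in the wild type, and the air regions had 41.1 to 400 CPM. The peri-injured ranges of both mutants overlap each other and the air range overlaps those of all 3 peri-injured groups. RTS0076370 had its highest mean in air, at 30728 to 46766 CPM, a range that overlaps that of the wild type peri-injured regions (23018 to 31574 CPM), and its range in injured regions of the young mutant, 1140 to 2715 CPM, lay below that of every other group of CD68+ segments.

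**Figure D5:**
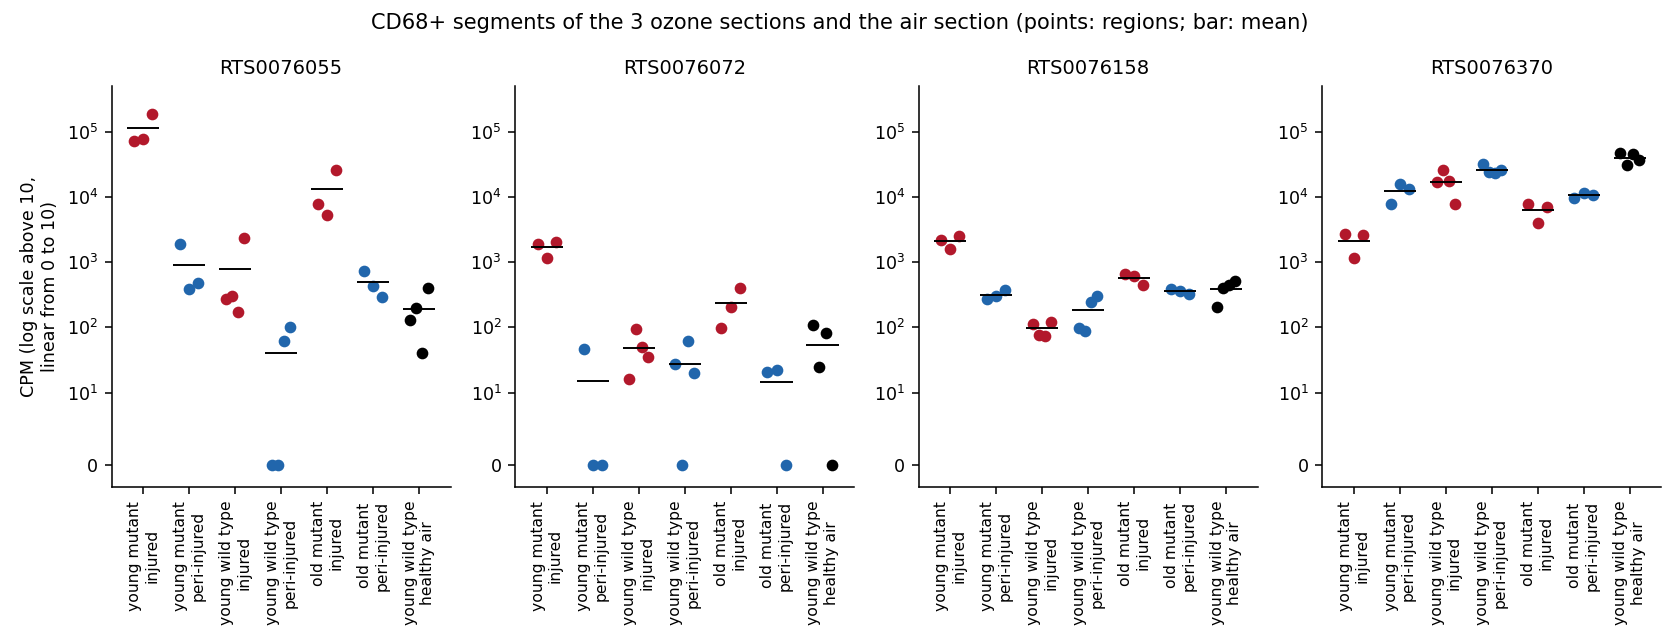
Level in CPM (log scale above 10, linear from 0 to 10) of 4 identifiers in CD68+ segments of the ozone and air sections, with points for regions and bars for means. RTS0076055, RTS0076072 and RTS0076158 are highest, and RTS0076370 lowest, in the injured regions of the young mutant.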

How the data were processed

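The authors deposited counts of probe barcodes per segment, with duplicate reads removed by molecular identifiers. The file headers name the GeoMx NGS Pipeline, version 2.3.4, and the submitters' processing notes name the build mm10. The deposited worksheets give the other value used, the area of each segment, with no unit printed. Duplicate reads made up 79.8 to 89.6% of aligned reads in the 6 CD68+ segments. Barcodes not listed were set to 0. Of 20238 identifiers, 20175 in 1 range of numbers were analysed and 63 outside it left out (at most 4 counts in any segment). The no template controls held 4 and 229 counts. A protein slide in the worksheets was not analysed here.

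Identifiers were kept with filterByExpr (minimum count 10), scaled by TMM, then fitted in edgeR 4.0.16 (quasi-likelihood F test, two-sided, Benjamini-Hochberg over all identifiers tested, adjusted p under 0.05) in R 4.3.3. The section comparisons were fitted on the 20 CD68+ segments of the ozone sections. CPM and log2 CPM (prior count 2) for levels used TMM over all 48 segments, on which injured regions lay above peri-injured regions by a median of 0.11 (log2) over the 222 identifiers. CPM differences are read against this shift. The SE is the log2 fold change over the square root of F.

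The text names up to 2 identifiers in each direction of a comparison, namely the calls of largest log2 fold change whose region types did not overlap and whose level lay above the median of those tested, plus the most abundant pair. Members and lists were chosen with earlier results of these data known. Both segments of a region share the region and animal, which pairs them. Their deviations from group means correlated at 0.04 to 0.18, and 5 of 6 CD68+ segments had the highest correlation with their own region. Counts of any pair of regions of 1 type differed beyond sampling noise (chi-square per degree of freedom 1.84 to 3.83). Alternatives were upper quartile factors, DESeq2 1.42.0, limma 3.58.1 voom, other filters, all 24 CD68+ segments in 1 fit, RTS0076055 left out, a prior count of 10 and leaving out each region. The fitting scripts were tested on simulated data.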

Additional observations from a re-analysis of the deposited data

Results flagged for a closer look

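RTS0076055 stood at 2346 CPM in the CD68+ segment of wild type injured region 9, far from the other 3 injured CD68+ segments of that section, which had 174 to 306 CPM. It was the only 1 of 27 groups of 4 regions in which a region stood so far apart, and chance alone gives about 1 in 20 groups. This region sets most of the wild type mean for RTS0076055 (775 ± 1049 CPM, SD, n = 4).

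Differences of the injury effect passed a test between groups for 2 identifiers between segments, 13 from the wild type section and 3 from the old mutant section, all over regions of 1 animal per section. Those named are as follows. Between CD68+ and CD45- segments they were 1.82 for RTS0076158 and -1.93 for RTS0076370. From the wild type section they were 6.18 for RTS0076072, 3.53 for RTS0076158, -1.89 for RTS0076370, -1.56 for RTS0068371 and -6.56 for RTS0063075, the last named after its values were seen. From the old mutant section they were 1.92 for RTS0076158, 6.32 for RTS0063733 and -6.09 for RTS0063075, where the last pair rests on 14 and 9 counts in the young mutant. All 3 comparisons hold the same CD68+ injury difference of the young mutant, so a pass of RTS0076158 or another identifier in several of them is no independent agreement. The call of RTS0076158 was lost in 6 of 10 alternatives between segments, in 7 of 8 from the old mutant section and in 0 of 8 from the wild type section. That of RTS0076370 was lost in 6 of 10 between segments and in 4 of 8 from the wild type section. The call of RTS0076072 from the wild type section was lost in 1 of 8.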

How the results depend on the processing

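RTS0076055 and RTS0076072 were called higher under every alternative in which they were tested (13 and 14). RTS0076370 and RTS0076763 were called in 13 of 14 and were not called without a filter (-2.05 and -1.41). For injured against peri-injured CD68+ segments, 23 calls of 222 tested became 38 of 629 with all 24 CD68+ segments in the fit. They became 9 to 24 when 1 region was left out, with 199 to 340 tested. Upper quartile factors gave 20 (10 higher), DESeq2 16 (9 higher), voom 23 (9 higher) and all 24 segments with the same 222 identifiers, chosen after seeing the data, 27 (13 higher). The split turned towards higher calls with a filter of 50 CPM (21 higher and 6 lower of 4449 tested, 14 of the 23 shared). It did so too without a filter (19 higher and 6 lower of 19944 tested, 8 shared), where the median of all identifiers was 0.27. The cause was not tested.

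For the difference between segments, the replicate block gave 7 calls in place of 2, of 883 tested. No filter gave 13 of 20175, with neither RTS0076158 nor RTS0076370 among them. Leaving out a region gave 0 to 1, with 815 to 1700 tested. For the difference from the wild type section DESeq2 gave 4 in place of 13, of 617 tested, and leaving out a region 1 to 15. For that from the old mutant section, upper quartile factors and DESeq2 gave 0 in place of 3, of 617 tested, and leaving out a region 0 to 4. In both section comparisons, fits without a region tested 723 to 776 identifiers. The replicate block changed no other comparison, since the others use 1 segment per region.

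Without 1 region, the difference in identifiers detected (833) ranged from -625.3 to 2701 and was -146 without peri-injured region 4, with injured region 1 giving the lowest value. The difference in share of captured area (2.35 percentage points) ranged from -0.802 to 5.64, lowest without injured region 3, and was -0.115 without peri-injured region 4. The list medians for injured minus peri-injured ranged from -0.11 to 0.13 (macrophage-enriched) and from -0.56 to -0.24 (non-immune-enriched). At a depth of 20043 to 59938 counts the filter kept 222 identifiers, against 4449 at 50 CPM. There 11 of the 27 calls lay below the main filter, 10 higher and 1 lower. Of these 11, 2 had over 70% of their counts in 1 segment.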
